A study of Mus musculus with 4 samples.

Results

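The glycolysis and glucose metabolism genes were 38 genes chosen by name, from glucose transporters to the enzymes of glycolysis, lactate and pyruvate handling, the pentose phosphate pathway, glycogen synthesis and gluconeogenesis, with the hypoxia-inducible factor gene Hif1a. A region belonged to them when the peaks of all libraries, merged wherever they shared at least 1 bp, carried one of these names on their highest peak. The rule found 181 such regions among 60710, for 36 of the 38 genes, and no region was named for Pfkfb1, a liver-type bifunctional regulator, or Gys1, the muscle-type glycogen synthase. ATAC-seq, in which the Tn5 transposase inserts sequencing adapters into open DNA, was performed on bone marrow-derived macrophages (BMDMs) of wild-type mice aged 8 to 12 weeks. The control group was 2 libraries of BMDMs grown for 6 days with L929 supernatant as the source of M-CSF, and the IL-4 group was 2 libraries of the same kind of cells exposed to IL-4 at 20 ng/ml for 1 h. No gene was deleted in either group, L929 supernatant was common to both, and the labels do not say whether replicates came from separate animals, while the methods call them biological replicates. The comparison asks how chromatin accessibility at these genes differed after the first hour of alternative polarization.

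Glycolysis splits glucose into pyruvate in the cytosol, and hexokinases, phosphofructokinases and pyruvate kinase catalyse its irreversible steps. Pyruvate then enters mitochondria through the pyruvate dehydrogenase complex, which the Pdk kinases inhibit, or is reduced to lactate by lactate dehydrogenase. In macrophages, strong glycolysis driven by HIF-1α is a known feature of inflammatory activation, and IL-4, acting through STAT6, drives alternative polarization, in which oxidative metabolism has a larger role.

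Peak heights at these genes did not pass the adjusted threshold in either direction after 1 h of IL-4. Of the 181 regions, 87 held a peak in every library, and limma called 0 of them at an adjusted p under 0.05, where 0.0157% of all regions were called higher and 0.00786% lower. At an unadjusted p under 0.05, 4 were lower and 0 higher, against 4.15% and 4.12% of all regions. These 4 were named for Eno1 (enolase), Ldha (lactate dehydrogenase A), Gapdh (glyceraldehyde-3-phosphate dehydrogenase) and Taldo1 (transaldolase). IL-4-only regions, with a peak in both IL-4 libraries and in neither control library, were 3 of 181 (1.66%, against 2.53% of all regions), and control-only regions, defined the other way round, 6 of 181 (3.31%, against 4.33%), although both shares were above those of all regions at a peak height of 5 or more. Of the 31 genes with a promoter region, 27 had it in all 4 libraries, against 76.4% of the 9813 genes with one.

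The sequences below belong to group-only regions and to regions described in the text for their low p or their height, read from the plus strand of GRCm38.p6, the assembly behind mm10, 5′ to 3′. The 3 IL-4-only regions come first, with capitals at any match to TTCNNNNGAA (the spacing that STAT6 prefers), TTCNNNGAA (the spacing of other STAT proteins), TGANTCA (AP-1) or GAGGAAG (PU.1, the macrophage lineage factor), each searched on both strands. Capitals thus mark a STAT6-spacing match in Pgd and a PU.1 match in Hk2, while the Pfkfb3 region holds none of these words.

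Hk2 IL-4-only region, chr6:82781111-82781300: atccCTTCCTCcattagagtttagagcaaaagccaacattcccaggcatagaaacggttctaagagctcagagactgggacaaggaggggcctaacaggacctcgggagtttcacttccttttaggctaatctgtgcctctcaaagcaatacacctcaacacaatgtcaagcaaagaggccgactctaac
Pfkfb3 IL-4-only region, chr2:11553316-11553441: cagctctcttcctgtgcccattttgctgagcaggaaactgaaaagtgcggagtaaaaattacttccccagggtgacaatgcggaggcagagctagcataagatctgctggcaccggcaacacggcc
Pgd IL-4-only region, chr4:149166194-149166438: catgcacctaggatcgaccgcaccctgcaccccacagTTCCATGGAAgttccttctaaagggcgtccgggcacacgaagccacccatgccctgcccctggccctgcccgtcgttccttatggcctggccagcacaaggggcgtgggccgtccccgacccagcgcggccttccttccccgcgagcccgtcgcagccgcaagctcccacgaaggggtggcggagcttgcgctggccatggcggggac

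Both control-only promoter regions follow, with the HIF core words ACGTG and GCGTG, on either strand, in capitals.

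Slc16a3 control-only promoter region, chr11:120948398-120948552: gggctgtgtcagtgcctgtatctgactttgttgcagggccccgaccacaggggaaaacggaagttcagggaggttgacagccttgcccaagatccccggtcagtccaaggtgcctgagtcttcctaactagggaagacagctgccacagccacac
G6pdx control-only promoter region, chrX:74429093-74429243: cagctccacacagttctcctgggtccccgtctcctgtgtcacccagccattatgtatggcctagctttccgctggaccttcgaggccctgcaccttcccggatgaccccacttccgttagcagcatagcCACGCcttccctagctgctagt

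The next 3 are the regions with the lowest p of the limma test for Eno1 and Ldha, and the highest region of Slc2a3, which has no promoter region, with the same capitals as the IL-4-only set. An AP-1 word stands in the Ldha and in the Slc2a3 region.

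Eno1 upstream region, chr4:150227266-150227472: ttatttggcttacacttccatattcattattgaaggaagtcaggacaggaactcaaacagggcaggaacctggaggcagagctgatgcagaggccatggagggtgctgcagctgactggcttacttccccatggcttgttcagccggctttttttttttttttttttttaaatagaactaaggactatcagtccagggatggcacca
Ldha upstream region, chr7:46833366-46833595: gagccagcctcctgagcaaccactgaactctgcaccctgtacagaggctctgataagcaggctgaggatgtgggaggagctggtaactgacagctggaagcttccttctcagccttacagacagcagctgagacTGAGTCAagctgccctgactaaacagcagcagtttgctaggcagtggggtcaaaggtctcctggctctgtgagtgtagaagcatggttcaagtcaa
Slc2a3 upstream region, chr6:122758776-122759065: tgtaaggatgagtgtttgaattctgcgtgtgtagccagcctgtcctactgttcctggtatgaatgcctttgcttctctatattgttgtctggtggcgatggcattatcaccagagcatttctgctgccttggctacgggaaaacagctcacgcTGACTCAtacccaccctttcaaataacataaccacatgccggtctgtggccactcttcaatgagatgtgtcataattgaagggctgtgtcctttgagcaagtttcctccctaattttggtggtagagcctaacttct

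The RefSeq promoter windows of Ldha and Eno1 (250 bases before to 50 after the start, GRCm38.p6, gene strand, which is plus for both) are shown with HIF core words in capitals, as examples, chosen after their values were seen, of the 7 promoters with normalised heights lower in each IL-4 library than in each control library. The Ldha window holds 7 matches, counting both strands, and the Eno1 window 2. Counted over the whole promoter region instead of the window, Ldha held 9 matches and Eno1 5. On that count, promoter regions that were higher in IL-4 also held them, with 5 matches in that of Slc16a1 and 5 in that of Pdk3.

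Ldha promoter, chr7:46845554-46845853: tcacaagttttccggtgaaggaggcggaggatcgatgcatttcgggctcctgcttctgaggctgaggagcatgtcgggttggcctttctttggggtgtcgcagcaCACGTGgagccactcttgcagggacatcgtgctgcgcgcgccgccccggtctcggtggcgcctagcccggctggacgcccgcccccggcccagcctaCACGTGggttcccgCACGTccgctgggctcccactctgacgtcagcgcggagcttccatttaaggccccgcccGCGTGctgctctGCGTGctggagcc
Eno1 promoter, chr4:150236947-150237246: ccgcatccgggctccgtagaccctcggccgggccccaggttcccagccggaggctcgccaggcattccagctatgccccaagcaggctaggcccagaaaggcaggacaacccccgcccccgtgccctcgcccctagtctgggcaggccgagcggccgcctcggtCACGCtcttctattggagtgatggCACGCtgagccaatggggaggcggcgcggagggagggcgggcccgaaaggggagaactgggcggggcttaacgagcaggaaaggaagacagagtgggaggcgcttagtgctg

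The value of a peak, called its height here, is the score in the deposited lists, read as −log10 of the MACS2 q-value, a unit that no source states. It states how strongly a peak stands above the background of its own library, grows with sequencing depth, and is no read count, so library depth is unknown. The libraries held 45250 and 41885 peaks in control and 41978 and 39462 in IL-4, with median heights of 8.04 and 7.46 against 7.69 and 6.41. IL-4 replicate 2 was therefore the library with the fewest and lowest peaks. As a check of the cell type, promoter regions were found in all 4 libraries for 4 of 10 macrophage markers (Cd68, Fcgr1, Lyz2 and Cd14) and in 3 libraries for Mertk and Mrc1. Csf1r and Itgam had regions but none annotated as a promoter, and no region carried the names Adgre1 or Spi1. Markers were looked up under these names only. A gene that the annotation lists under another name would be missed, so a missing name does not show closed chromatin. The markers of fibroblasts, T cells, mast cells and erythroid cells had no promoter region, whereas Ebf1 of the B cell list had one in 3 libraries and S100a8 of the neutrophil list in all 4. The summed promoter height ran from 47.9 to 75.8 over the macrophage list, from 0 to 8.6 over the B cell list and from 2.5 to 6.6 over the neutrophil list.

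Regions of the glucose metabolism genes lay somewhat nearer to a gene start than all regions did. Of the 181 regions, 36 were promoters, 77 intronic, 63 intergenic, 3 at transcription termination sites, 1 exonic and 1 in a 5′ UTR. Within 1 kb of the transcription start site (TSS) lay 30.4% of them and 24.8% of all regions. Beyond 10 kb lay 47.0% against 56.7%, and beyond 50 kb 13.3% against 23.3%. The median was 4 regions per gene, against 2 over all genes with a region. Of the intronic regions, 11 were in introns of another gene, such as 3 upstream regions of Hif1a in Prkch, 2 of Pdk1 in Itga6 and 2 downstream of Pdha1 in Map3k15, so the nearest TSS alone ties these to the members.

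Pfkp, the platelet-type phosphofructokinase, had the most regions, 18, and was also the member with the most intergenic ones, 9. Pfkfb3 had the most intronic regions, 8, and 5 genes (Slc16a3, Pfkp, Pfkfb3, Ldha and Gapdh) shared the highest number of promoter-annotated regions, 2 each. Hk2, the inducible hexokinase, had 14, Pfkfb3, which makes the fructose-2,6-bisphosphate that activates phosphofructokinase, and Hif1a had 11 each, and Slc2a1, the glucose transporter GLUT1, had 10. Pfkp, Hk2, Pfkfb3, Hif1a and Slc2a1 together held 64 of the 181 regions. The farthest Pfkp region lay 442706 bp upstream and had a peak in 1 library only.

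**Figure D1:**
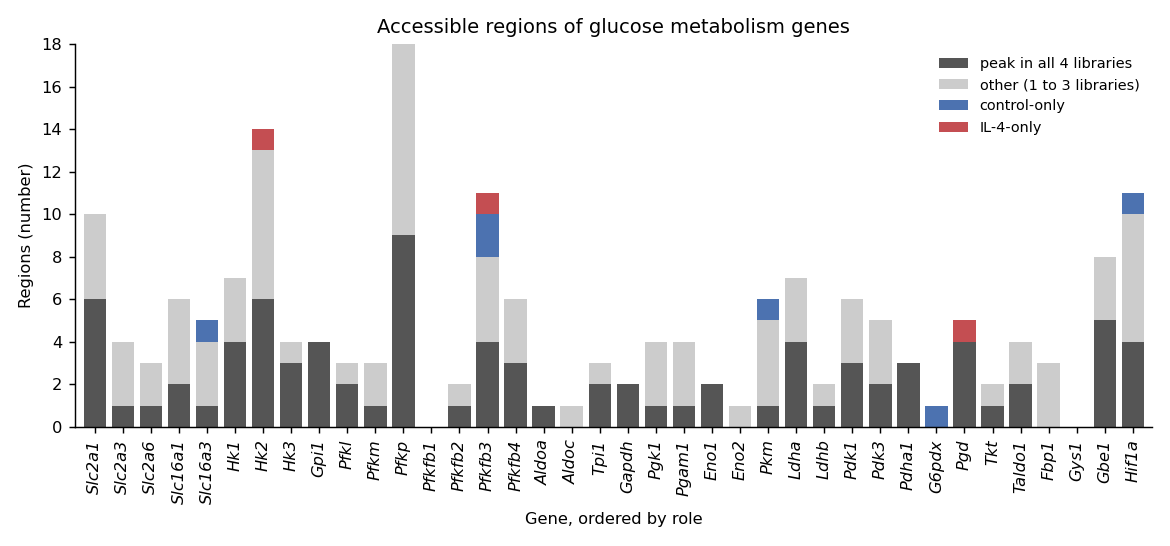
Number of accessible regions named for each gene (y axis) with the genes ordered by role (x axis), split into regions with a peak in all 4 libraries, control-only, IL-4-only and all others. Pfkp (18), Hk2 (14), Pfkfb3 (11), Hif1a (11) and Slc2a1 (10) are the tallest bars, and Pfkfb1 and Gys1 have none.

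A peak in all 4 libraries was found for 48.1% of the members' regions and 41.9% of all regions. Among promoters the share was 80.6% against 69.4%, and among intronic regions 45.5% against 34.9%, while intergenic regions were at 34.9% against 36.2%. A single library held the only peak of 48 regions (26.5%, all regions 29.6%). Of these, 18 were in control replicate 1, 15 in control replicate 2, 7 in IL-4 replicate 1 and 8 in IL-4 replicate 2. This split by library was not counted over all regions, so it is not read as a difference of the members. The members had 141 and 139 peaks under control and 132 and 113 under IL-4 conditions, a mean of 140.0 ± 1.4 (SD, n = 2) against 122.5 ± 13.4 (SD, n = 2). The exact two-sided permutation p was 0.3333, the smallest that 2 against 2 libraries allow. As a share of each library's peaks the members made up 0.312% and 0.332% in control and 0.315% and 0.286% in IL-4, which overlap (exact permutation p = 0.6667). IL-4 replicate 2 also had the fewest peaks in all, and the part of depth in the difference was not tested.

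Across the 87 regions the members' changes were read against all 25442 regions with a peak in every library. The normalised heights of the groups did not overlap at 19 members with IL-4 lower, which is 21.8% against 18.6% of all regions. They did not overlap at 9 with IL-4 higher, which is 10.3% against 19.2%. Without normalisation, which moved the median of all regions by −0.21, the counts were 34 lower (39.1%, all regions 29.3%) and 3 higher (3.45%, all regions 8.83%).

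The median log2 change was −0.10 over the members and 0.00 over all regions, and 52 of the 87 were below 0. This direction depended on a library, since the median of the members relative to all regions was 0.02 without IL-4 replicate 1 and −0.20 without IL-4 replicate 2. By class, promoters had a median of 0.00 (29 regions, all promoters 0.04), intronic regions −0.14 (35, all −0.03) and intergenic regions −0.15 (22, all −0.02). At promoters the groups did not overlap at 7 members with IL-4 lower (24.1%, all promoters 15%) and 5 higher (17.2%, all promoters 20.1%). The 12 regions with the lowest p were 8 lower and 4 higher, 7 of them promoters, with adjusted p up to 0.647.

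**Figure D2:**
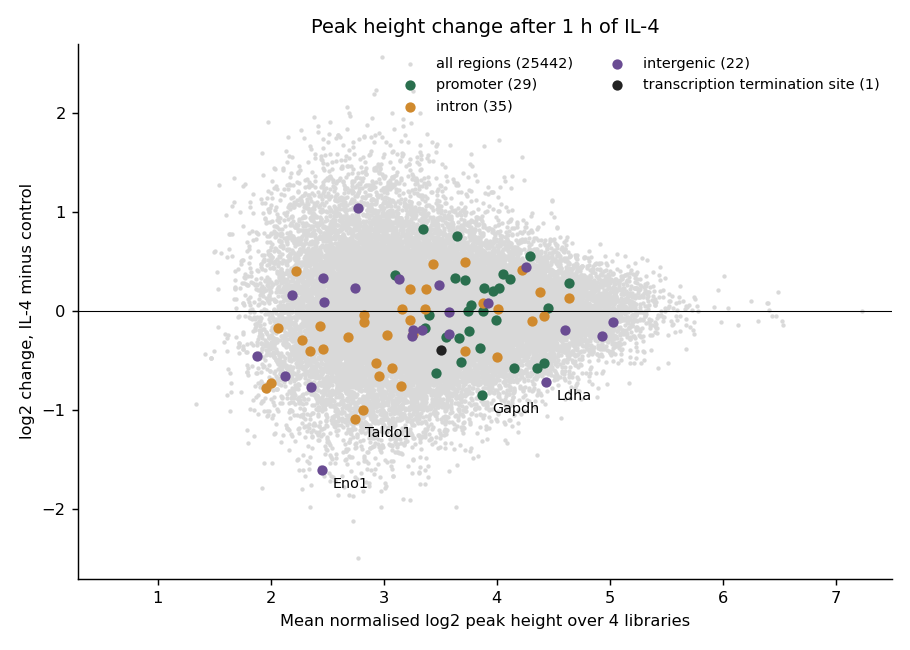
The log2 change (y axis, IL-4 minus control) against the mean normalised log2 peak height (x axis) for all 25442 regions in grey and the 87 members coloured by class. The members lie within the cloud of all regions, and the labelled Eno1, Ldha, Gapdh and Taldo1 regions have changes of −1.60, −0.71, −0.84 and −1.08.

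The group-only regions stood at low heights. In the library with the lower height, the IL-4-only members had 4.23 to 7.11 and the control-only members 3.08 to 6.19, whereas the median of that height over the 87 members with a peak in all libraries was 8.12. Over all IL-4-only and control-only regions of the genome the medians of the lower height were 3.73 and 4.0. Reads at these regions were not analysed here.

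Promoter heights of the members lay near the middle of all genes. Over the 27 genes with a promoter region in all 4 libraries, the median percentile of the mean normalised height was 56.9 among the 7495 genes with such a region, with a range from 23.9 for Taldo1 to 88.5 for Hif1a. Above the 75th percentile stood 5 genes and under the 25th 1. The 5 were Hif1a at 88.5, Pgk1 at 82.4, Hk2 at 80.8, Pfkfb4 at 78.5 and Ldhb at 76. The median log2 change over the 27 was 0.0, against 0.04 over all 7495 genes.

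**Figure D3:**
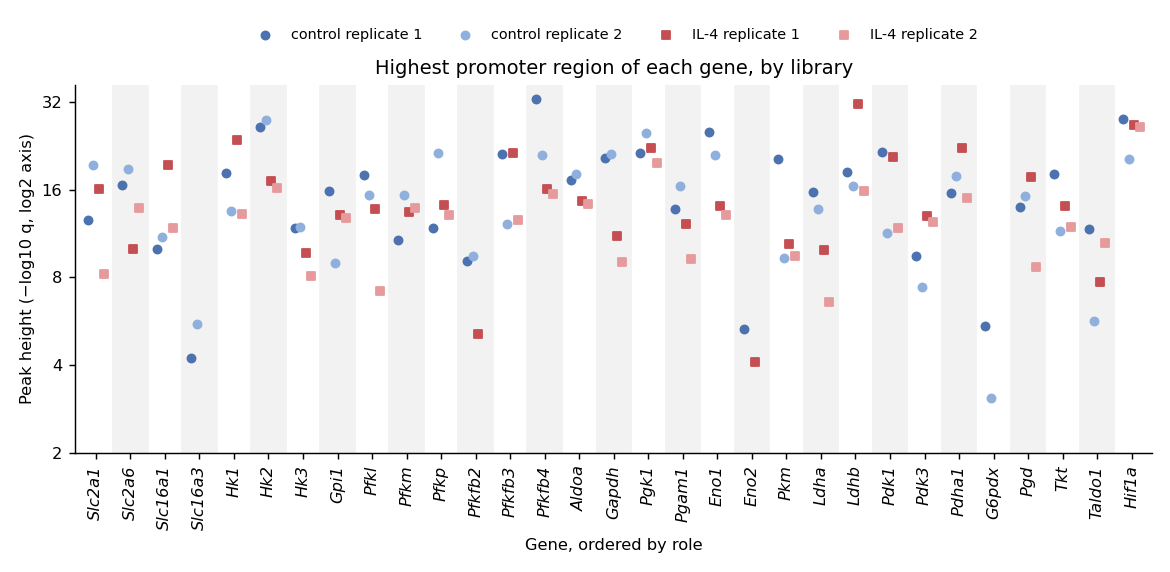
Peak height (−log10 q, log2 axis) of the highest promoter region of each of 31 genes, 1 point per library, with control as circles and IL-4 as squares. The IL-4 points lie below both control points at Hk2, Pfkfb4, Gapdh, Eno1 and Ldha, among others, and above both at Slc16a1 and Pdk3, and Slc16a3 and G6pdx have control points only.

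Glucose and lactate transporters had a promoter region in all libraries for Slc2a1, Slc2a6 and Slc16a1. The Slc2a1 promoter had heights of 12.59 and 19.4 in control and 16.14 and 8.22 in IL-4, and that of Slc2a6, another hexose transporter, 16.56 and 18.78 against 10.05 and 13.82. On the normalised scale both pairs of groups overlapped, with log2 changes of −0.20 and −0.37. Slc2a3, which encodes the high-affinity transporter GLUT3, had no promoter region. Its tallest region, 16169 bp upstream (chr6:122758776-122759065, intergenic), reached 34.18 and 35.2 in control and 34.06 and 20.78 in IL-4, with 3 values alike and IL-4 replicate 2 lower (log2 change −0.25 ± 0.22 SE, limma adjusted p = 0.82).

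Slc16a1 encodes the lactate and pyruvate carrier MCT1. Its promoter (chr3:104638457-104638793) had heights of 10.0 and 11.04 in control and 19.44 and 11.85 in IL-4, so both IL-4 values were above both control values. The log2 change was 0.76 ± 0.39 (SE) with limma adjusted p = 0.6194. The intergenic Slc2a1 region 25790 bp upstream (chr4:119082691-119083131) was 9.62 and 2.66 in control and 8.7 and 9.37 in IL-4. Only control replicate 2 was low there, and the raw heights overlapped, although the normalised ones did not (log2 change 1.04 ± 0.54, limma adjusted p = 0.6213). Leaving out control replicate 2 gave 0.255.

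Slc16a3, the gene of the lactate exporter MCT4, had a control-only promoter region 19 bp from the TSS (chr11:120948398-120948552) with heights of 4.24 and 5.53. Its second promoter-annotated region, of another transcript, had a peak of 3.18 in control replicate 1 only. The gene's first intron held a region with a peak in every library, at 10.39 and 9.06 in control and 8.12 and 8.45 in IL-4 (log2 change 0.02). The normalised heights of the groups overlapped at this intronic region.

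Among the enzymes of upper glycolysis, 29 regions of 7 genes had a peak in all libraries, with a median log2 change of −0.18. The Hk2 promoter (chr6:82774329-82774746) was at 26.25 and 27.86 in control and 17.17 and 16.17 in IL-4, with both IL-4 libraries below both controls. Its log2 change was −0.53 ± 0.28 (SE), with limma adjusted p = 0.6298. Of the 6 Hk2 regions with a peak in all libraries, 5 had a change below 0, and the groups did not overlap at 2, with IL-4 lower, a pattern that 18.6% of all regions showed. The IL-4-only Hk2 region, 6773 bp upstream (chr6:82781111-82781300, intergenic), had heights of 5.34 and 5.05 and lay 6364 bp from the nearest other Hk2 region.

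Hk1 and Hk3 encode the other hexokinases of the list. Hk1, the constitutive hexokinase, had promoter heights of 18.23 and 13.54 in control and 23.71 and 13.25 in IL-4, and Hk3, expressed in myeloid cells, 11.84 and 11.89 against 9.72 and 8.12. The Hk3 values in IL-4 were below both controls and the Hk1 values overlapped, with log2 changes of −0.17 and 0.38. Gpi1, glucose-6-phosphate isomerase, had an intronic region (intron 9 of 17, 16824 bp downstream of the TSS) at 14.83 and 7.74 in control and 4.82 and 4.48 in IL-4. There the groups did not overlap (log2 change −0.99 ± 0.52, limma adjusted p = 0.6262), whereas at the Gpi1 promoter, at 15.87 and 8.97 against 13.07 and 12.83, they did.

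The 3 phosphofructokinase genes, which encode the liver (Pfkl), muscle (Pfkm) and platelet (Pfkp) subunits, had 3 (Pfkl), 3 (Pfkm) and 18 (Pfkp) regions. At promoters the log2 changes were −0.51 for Pfkl, 0.31 for Pfkm and 0.00 for Pfkp. Pfkl had heights of 17.93 and 15.3 in control and 13.72 and 7.16 in IL-4, the lowest of these from IL-4 replicate 2. Of the 9 Pfkp regions with a peak in all libraries, the groups did not overlap at 3, with 2 higher and 1 lower in IL-4, where 19.2% of all regions were higher and 18.6% lower. The tallest of the gene, 249109 bp upstream, had 29.46 and 25.3 in control and 22.67 and 20.6 in IL-4 (log2 change −0.18).

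The bifunctional regulators showed both kinds of group-only region within Pfkfb3. Its IL-4-only region lay in intron 1, 561 bp from the TSS (chr2:11553316-11553441), with heights of 4.71 and 4.23. It was 95 bp from the promoter region 62 bp upstream of the TSS, which had peaks of 21.19 and 12.17 in control and 21.32 and 12.61 in IL-4, so merging peaks within 500 bp absorbed it. The control-only regions were named by their distance from another Pfkfb3 TSS, at the other promoter-annotated region (chr2:11501899-11502257). One lay 5289 bp downstream of that TSS (chr2:11496607-11496954, intronic, 8.08 and 4.53). The other lay 43417 bp downstream of it (chr2:11458587-11458760, intergenic, 5.65 and 6.18). The tallest intronic region, 18292 bp from the same TSS as the IL-4-only region, was 19.84 and 21.89 in control and 23.84 and 18.57 in IL-4.

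Pfkfb4 encodes a related regulator that responds to hypoxia. Its promoter (chr9:108991466-108992050) measured 32.64 and 20.97 in control against 16.03 and 15.44 in IL-4, with no overlap of groups. The log2 change was −0.57 ± 0.29 (SE), with limma adjusted p = 0.6123. The promoter of Pfkfb2, at 9.09 and 9.49 in control, had a peak of 5.1 in IL-4 replicate 1 and none in IL-4 replicate 2.

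The enzymes of lower glycolysis had the lowest median log2 change of any role, −0.33 over 10 regions, of which 8 were below 0. Over all 25442 regions, 12739 were below 0. The role was picked as the lowest after the values were seen, and a shared change of its genes was not tested. The Eno1 region 9798 bp upstream (chr4:150227266-150227472, intergenic) had heights of 13.23 and 8.15 in control and 2.95 and 2.72 in IL-4. Both IL-4 values were far below both controls, with a log2 change of −1.60 ± 0.54 (SE), and limma adjusted p = 0.3667, the lowest of all members. The Eno1 promoter (chr4:150236864-150237252), which the files annotate to the Eno1b transcript, had 25.16 and 21.07 against 14.09 and 13.13, again with both IL-4 values below both controls (log2 change −0.57 ± 0.31, limma adjusted p = 0.647).

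Gapdh had a pair of promoter-annotated regions. The one farther from the TSS was at 20.53 and 21.24 in control and 11.14 and 9.04 in IL-4. The nearer one was at 17.08 and 12.65 in control and 15.46 and 14.5 in IL-4. The groups did not overlap at the farther one (log2 change −0.84 ± 0.35, limma adjusted p = 0.5145) and overlapped at the nearer (0.24, limma adjusted p = 0.9147), and the difference between both was not tested.

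The promoters of Aldoa (aldolase A), Pgk1 (phosphoglycerate kinase) and Pgam1 (phosphoglycerate mutase) overlapped between the groups in normalised height, with log2 changes of −0.09, 0.03 and −0.26, while the raw heights of Aldoa and Pgam1 were lower in both IL-4 libraries. Pgk1 was the tallest of them at 21.46 and 25.11 in control and 22.3 and 19.79 in IL-4. Pkm, which encodes the pyruvate kinase of macrophages, had a promoter at 20.45 and 9.31 in control and 10.38 and 9.49 in IL-4, where control replicate 1 alone was high. Its control-only region lay in intron 1, 3272 bp from the TSS, with heights of 3.9 and 6.58, and IL-4 replicate 1 had a peak of 4.68 in another region 141 bp away. Tpi1, triosephosphate isomerase, had no promoter-annotated region, and its nearest one, 128 bp downstream and annotated to the end of Usp5, stood at 10.36 and 19.13 in control and 10.29 and 8.07 in IL-4. Aldoc and Eno2, the isoforms typical of brain, had 1 region each and no peak in at least 1 library.

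In pyruvate and lactate handling, Ldha and Ldhb lay on opposite sides of 0. The Ldha region 12324 bp upstream (chr7:46833366-46833595, intergenic) had 32.72 and 25.63 in control and 21.12 and 11.7 in IL-4, with no overlap and a log2 change of −0.71 ± 0.28 (SE, limma adjusted p = 0.4503). All 4 Ldha regions with a peak in every library had a change below 0, and the groups did not overlap at 3, with IL-4 lower, a pattern of 18.6% of all regions. At the Ldha promoter the heights were 15.75 and 13.79 in control and 9.92 and 6.58 in IL-4 (log2 change −0.62 ± 0.42, limma adjusted p = 0.7422). Ldhb, the heart-type subunit, had promoter heights of 18.35 and 16.43 in control and 31.55 and 15.83 in IL-4, and IL-4 replicate 1 alone was high on the raw scale (log2 change 0.56 ± 0.30, limma adjusted p = 0.6346).

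Pdk3, a kinase that inhibits pyruvate dehydrogenase, had a promoter at 9.47 and 7.42 in control and 12.96 and 12.35 in IL-4. Both IL-4 values were above both controls (log2 change 0.83 ± 0.44, limma adjusted p = 0.6301). An intergenic Pdk3 region 31393 bp upstream had no peak in control replicate 1, 3.78 in control replicate 2, and 9.02 and 13.42 in IL-4. Pdk1, a kinase of the same family, had 21.62 and 11.33 against 20.71 and 11.8 at its promoter, and Pdha1, a subunit of the dehydrogenase, 15.65 and 17.9 against 22.23 and 14.99. Their log2 changes were 0.21 and 0.33, and the raw values of both overlapped, although the normalised ones of Pdha1 did not, with IL-4 higher.

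The pentose phosphate pathway, which makes NADPH and ribose, held 1 region of each group-only kind. The IL-4-only Pgd region, at the gene of 6-phosphogluconate dehydrogenase, lay in intron 1, 391 bp from the TSS (chr4:149166194-149166438), with heights of 7.53 and 7.11, the highest of the 3. It was 78 bp from the Pgd promoter region, which measured 13.91 and 15.25 in control and 17.72 and 8.67 in IL-4 (log2 change 0.00), and it too was absorbed when peaks within 500 bp were merged. The only G6pdx region, at the promoter of glucose-6-phosphate dehydrogenase, which the annotation shares with Ikbkg (chrX:74429093-74429243), was control-only with heights of 5.46 and 3.08. Taldo1 had an intronic region 2179 bp from its TSS at 12.77 and 8.77 in control and 5.67 and 3.2 in IL-4. There was no overlap there (log2 change −1.08 ± 0.52, limma adjusted p = 0.5877), while the Taldo1 promoter, at 11.7 and 5.66 against 7.73 and 10.51, overlapped.

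Gbe1, the glycogen branching enzyme, had 8 regions and none annotated as a promoter. The tallest, annotated to intron 1 at 357 bp from the TSS, was 849 bp long and spanned the TSS. Its heights were 23.02 and 27.76 in control and 24.33 and 25.72 in IL-4. These values were close in all libraries (log2 change 0.13, limma adjusted p = 0.9355). Fbp1, the gluconeogenic fructose-bisphosphatase, had 3 regions and none in all libraries. Hif1a had its promoter at 28.03 and 20.36 in control and 26.68 and 26.18 in IL-4, and its tallest region, 128333 bp upstream, at 44.09 and 27.32 against 29.71 and 31.1. The raw values overlapped at both, with log2 changes of 0.28 and −0.11, although the normalised promoter heights did not overlap and were higher in IL-4. The control-only Hif1a region, 26250 bp upstream, had heights of 6.19 and 9.69 and lay 629 bp from a region with a peak in all 4 libraries.

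**Figure D4:**
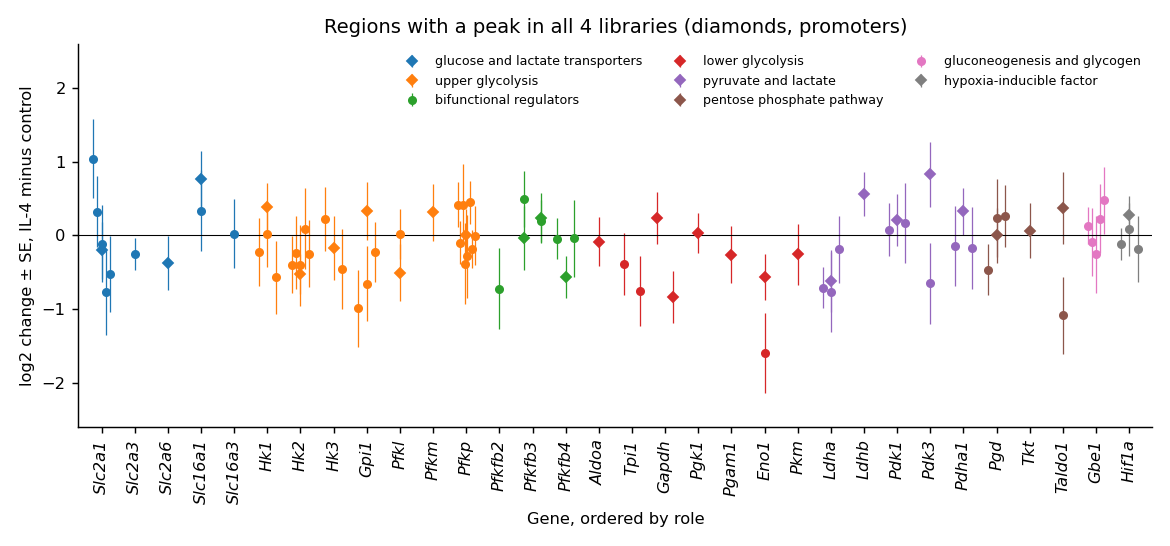
The log2 change in normalised peak height with its SE (y axis, IL-4 minus control, n = 2 and 2) of each of the 87 regions found in every library, by gene and coloured by role, with diamonds for promoters. All 4 Ldha and both Eno1 points lie below 0, both Slc16a1 points lie above 0, and most genes have points on both sides or near 0.

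A second list of the pathway held 66 other genes of glycogen, pyruvate, hexose and hypoxia metabolism, of which 53 had 221 regions. None of its 100 regions with a peak in every library passed the adjusted threshold, and 5 were lower and 7 higher at an unadjusted p under 0.05, where 4.15% and 4.12% of all regions were. The list had 2 IL-4-only and 7 control-only regions of 221 (0.905% and 3.17%, against 2.53% and 4.33% of all regions) and a median log2 change of 0.04. The lowest p belonged to Epas1, which encodes HIF-2α, at 68383 bp upstream, with heights of 5.12 and 3.41 in control and 14.74 and 12.55 in IL-4 (log2 change 1.95 ± 0.51, limma adjusted p = 0.1787). Other Epas1 regions at an unadjusted limma p under 0.05 went both ways, with log2 changes of −0.92 at 90211 bp and 0.54 at 21570 bp upstream. The next lowest p were those of intronic regions named for Pdhb (log2 change −0.81, limma adjusted p = 0.2683) and Slc16a7 (1.41, limma adjusted p = 0.4044). These lay 18687 and 63400 bp from the TSS, and the genes whose introns held them are not given for this list. Bsg, the chaperone of MCT1 and MCT4, had a promoter at 33.74 and 30.79 against 20.15 and 15.89 (log2 change −0.69 ± 0.25, limma adjusted p = 0.4044).

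The members' promoters shared sequence features that the choice by name did not use. In the 300 bp around the centre of each region, a HIF core word (ACGTG or GCGTG, both strands) stood in 31 of 36 promoter regions, or 86.1%, against 66.0% of all 11415 promoter regions. Outside promoters it stood in 45.5% of the members' regions and 32.8% of all. The E-box CACGTG, each copy of which contains the HIF core on both strands, was in 13.9% of the members' promoters against 10.4%, and GGGCGG (GC box) in 83.3% against 66.3%. Promoters of the members had a median GC content of 65.7%, against 64.0%. In the RefSeq promoter windows, 37 of the 38 genes were matched and 31 of these (83.8%) held a HIF core word, against 46.7% of 27025 genes. The GC box was in 78.4% of them against 38.2%, the E-box in 16.2% against 8.09%, and CCAAT in 48.6% against 41.1%. A gene counted when any of its windows held the word. The 27025 genes were not limited to those with a promoter region in these libraries, so these shares differ in scope from those of the promoter regions.

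The STAT6 spacing TTCNNNNGAA was in 9.66% of the members' regions outside promoters, against 9.94% of all, and in the same 300 bp windows of 1 of 36 promoters (2.78%, all promoters 4.91%). AP-1 words were in 33.1% outside promoters against 27.4%, and PU.1 words in 24.1% against 27.8%. CCAAT (NF-Y) was in 47.2% of the members' promoters against 35.7%. A match describes letters in a window and is not evidence of a bound factor. Of the 181 regions, 177 had no near copy elsewhere in the genome, counted at 95% identity over 50% of the region. The exceptions were one region each of Pdk1 and Pfkp, with 61 and 52 copies, and 2 of Slc16a1 with 1 copy each, none of them among the regions named for their p or as group-only.

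**Figure D5:**
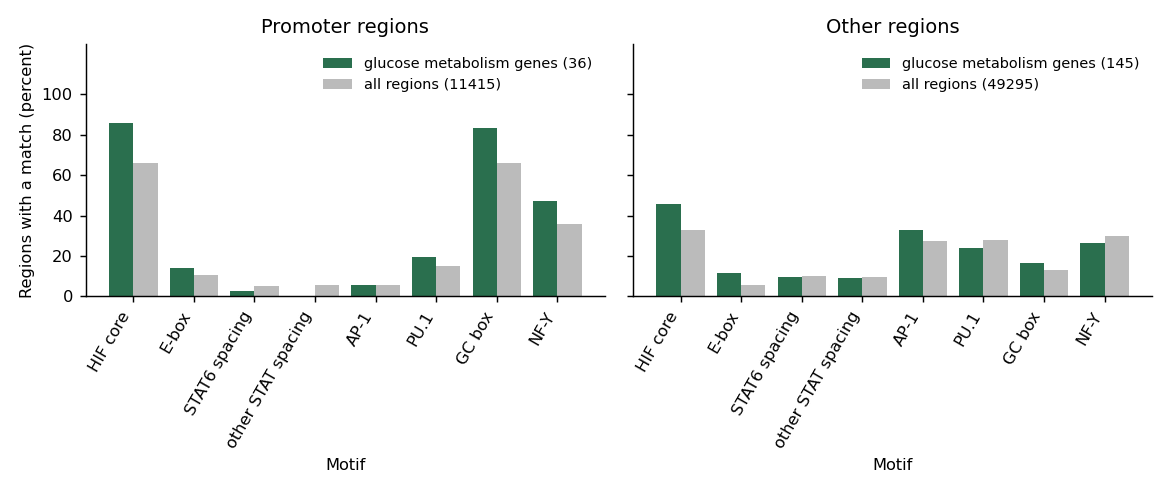
Percent of regions (y axis) with a match to each motif in the central 300 bp, for promoter regions on the left and other regions on the right, members in green and all regions in grey. The HIF core bar of the members' promoters reaches 86.1% beside 66.0% for all promoters, and the STAT6 spacing bars outside promoters are 9.66% and 9.94%.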

How the data were processed

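ATAC-seq peaks of 4 BMDM libraries were used, control and IL-4 for 1 h with 2 each, grouped by the labels. Per the labels' processing notes the authors used BWA 0.7.10, SAMtools 0.1.19, MACS2 2.0.10 and HOMER 4.2 on mm10, and their methods name the blacklist filter. Peaks were called per library, not pooled. The deposited peak score was read as −log10 of the MACS2 q-value from its lowest values, near −log10 of 0.05, since no source names its unit. The stated cut-off, a q of 0.01, would be a score of 2, whereas 0.294 to 1.53% of peaks per library scored lower, so the unit stays uncertain. Tn5 shifting and duplicate handling are not given in the sources used here, and depth is unknown.

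Peaks of chromosomes 1 to 19, X and Y that shared 1 bp were joined into regions. For the 25442 regions found in every library, log2 heights were brought to common quantiles and compared in limma 3.58.1 (R 4.3.3, variance trend) with Benjamini-Hochberg adjustment at 0.05, after a test on simulated data. Peak counts per library were compared by exact permutation. Copies were sought with blastn 2.17.0. Text names each member's highest promoter region, group-only regions, the 12 lowest p and the members with most regions, and other regions were added after their values were seen. Members and lists were chosen with earlier results of these data known. Alternatives changed normalisation, variance model, merging, score minimum, distance, naming, block and libraries. The p-values rest on the spread between 2 libraries a group, which limma drew toward a trend over all 25442 regions. One region's sequence is not reported here.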

Additional observations from a re-analysis of the deposited data

How the results depend on the processing

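In the alternatives that kept all 4 libraries, limma called 0 member regions at the adjusted threshold, with a lowest adjusted p of 0.2699. At an unadjusted limma p under 0.05 stood 4 to 8 of them, against 4 in the main fit. The count of 8 came without normalisation, where the median change of all regions was −0.2112. The share of all regions at that p was not counted in these fits, so the range is not read as a difference of the members. The limit of 50 kb to the TSS only dropped member regions from the main fit. The 12 named regions kept their sign. They had the lowest p in these data and normalised groups that did not overlap, so kept signs are no support for stability. In the 4 fits without 1 library, the lone library of a group is assumed to vary like the other group, so they are no support for stability. Leaving out 1 library moved 5 of the 12 log2 changes by over 1.5 times, namely Slc2a1 at −25790 bp (1.04) to 0.255 without control replicate 2 and up to 1.80, Ldhb (0.56) to 0.217 without IL-4 replicate 1 and up to 0.868, Pfkfb4 (−0.57) to −0.309 and Gpi1 (−0.99) to −0.639 without control replicate 1, and Ldha at −12324 bp (−0.71) to −0.435 without IL-4 replicate 2. The members' median relative to all regions, −0.0973, ranged from −0.1967 to 0.0156 as 1 library was left out, and turned above 0 without IL-4 replicate 1. The IL-4-only count of 3 ranged from 5 to 11 and the control-only count of 6 from 11 to 24 as 1 library was left out, since the definition then asks for fewer libraries. Merging peaks within 500 bp left 1 IL-4-only region of 149 (0.671%, all regions 2.48%), a score of 5 or more gave 4 IL-4-only and 11 control-only regions of 138 (2.9% and 7.97%, all regions 2.3% and 4.63%), which turned both shares above those of all regions, and tolerating a peak in 1 library of the other group gave 8 IL-4-only and 25 control-only regions (4.42% and 13.8%, all regions 7.15% and 13%). Control-only shares also turned above those of all regions without control replicate 1 (11.6%, all 11%) and without IL-4 replicate 1 (11%, all 10.1%). With the replicate number as a block the counts stayed at 0 and the median at −0.0973, while calls over all regions rose from 6 to 14. The deviations of same-numbered libraries correlated at 0.0068 over regions, and 2 pairs cannot show a pairing. Library depth is unknown, and what differences these heights can show at low peaks was not tested.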
